A study of Mus musculus with 6 samples.

Results

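The 10 genes studied here build the tight and adherens junctions of the intestinal epithelium, and their transcripts were followed through abdominal irradiation and treatment with MPLA. They were chosen by name: the claudin genes Cldn2, Cldn3, Cldn4, Cldn7, Cldn15 and Cldn23, the occludin gene Ocln, the junctional adhesion molecule gene F11r, the zonula occludens gene Tjp1 and the E-cadherin gene Cdh1. The choice was made with earlier results of these data known. All 10 were among the 21878 genes of the deposited tables, and all 10 were among the 10415 with at least 1 FPKM in at least 2 libraries, which were the genes tested. FPKM count sequenced fragments scaled by transcript length and by the mapped total of the library. The RNA is that of intestinal crypts from C57BL/6 mice, with 3 groups and 2 libraries in each. AIR_MPLA crypts (replicates 1 and 3) were taken 3 days after abdominal irradiation from mice also given MPLA, monophosphoryl lipid A, a ligand of Toll-like receptor 4. AIR crypts (replicates 1 and 3) were taken 3 days after the same irradiation without MPLA, and Control crypts (replicates 2 and 3) came from mice that were not irradiated. The labels give no radiation dose, no MPLA dose or schedule, and no sex or age. They do not say whether each library is a different animal; p-values here therefore measure the spread between libraries alone, which may be technical.

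FPKM totals lay between 381669 and 492247 a library, and read depth is unknown. Control replicate 2 stands apart: its own file and the matching series-table column have no equal value above 0.001 FPKM. The values of its own file are used below, and those of the series table are given where they matter. The crypt label was set beside markers. The summed FPKM of 6 Paneth cell genes lay between 6857 and 11693 in the 4 irradiated libraries, against 14908 and 44900.5 in Control, and that of 6 stem cell genes between 130 and 381, against 870 and 660 in Control. Most of the Paneth sum was Defa24, with 10144 FPKM in Control replicate 2, where the series table has 37711, and 29539 in replicate 3. In Control replicate 2 Lyz1, Defa24 and Defa17 lay above all 4 irradiated libraries. Mmp7 (86.0 FPKM) lay below them there, and Ang4 (205) and Itln1 (473) lay within their range. For these genes the series table has 370, 1571 and 2720 FPKM. Villus enterocyte genes were present too, with a summed FPKM of 5408 and 6852 in Control and between 9199 and 18479 in the irradiated libraries. Crypt purity was not tested. Blood vessel and connective tissue markers were near 0, with a summed FPKM of at most 0.368 for 5 endothelial genes and 1.53 for 5 mesenchymal genes in every library. In bulk tissue, fewer cells of a type and less RNA per cell cannot be told apart.

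Tight junctions close the space between neighbouring epithelial cells near their apex. Claudins span the membrane and set which ions and how much water pass between the cells: claudin 2 and claudin 15 form pores for small cations and water, while claudins such as 3 and 4 mostly seal. Occludin and junctional adhesion molecule A are further membrane proteins of the belt, and ZO-1, the product of Tjp1, ties them to actin. E-cadherin, the product of Cdh1, holds cells together in the adherens junction just below and binds beta-catenin inside the cell.

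FPKM are scaled by transcript length, so levels of different genes can be set side by side. They are not corrected for GC content, so such comparisons are approximate. Cldn7 had the highest FPKM of the 10 in every library, followed in each by Cldn3, Cldn15, Cdh1, Cldn2 and F11r in that order. The group means of Cldn7 were 581 ± 47.6 FPKM in AIR_MPLA, 397 ± 102 in AIR and 546 ± 118 in Control (SD, n = 2 each). The order of the last 4 (Ocln, Tjp1, Cldn23 and Cldn4) differed between libraries. In Control, Cldn3 (291 ± 56.6 FPKM) and Cldn15 (280 ± 42.5) differed by less than their spread. Cldn2 (72.0 ± 3.77) and F11r (57.7 ± 8.43) did not overlap there.

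**Figure D1:**
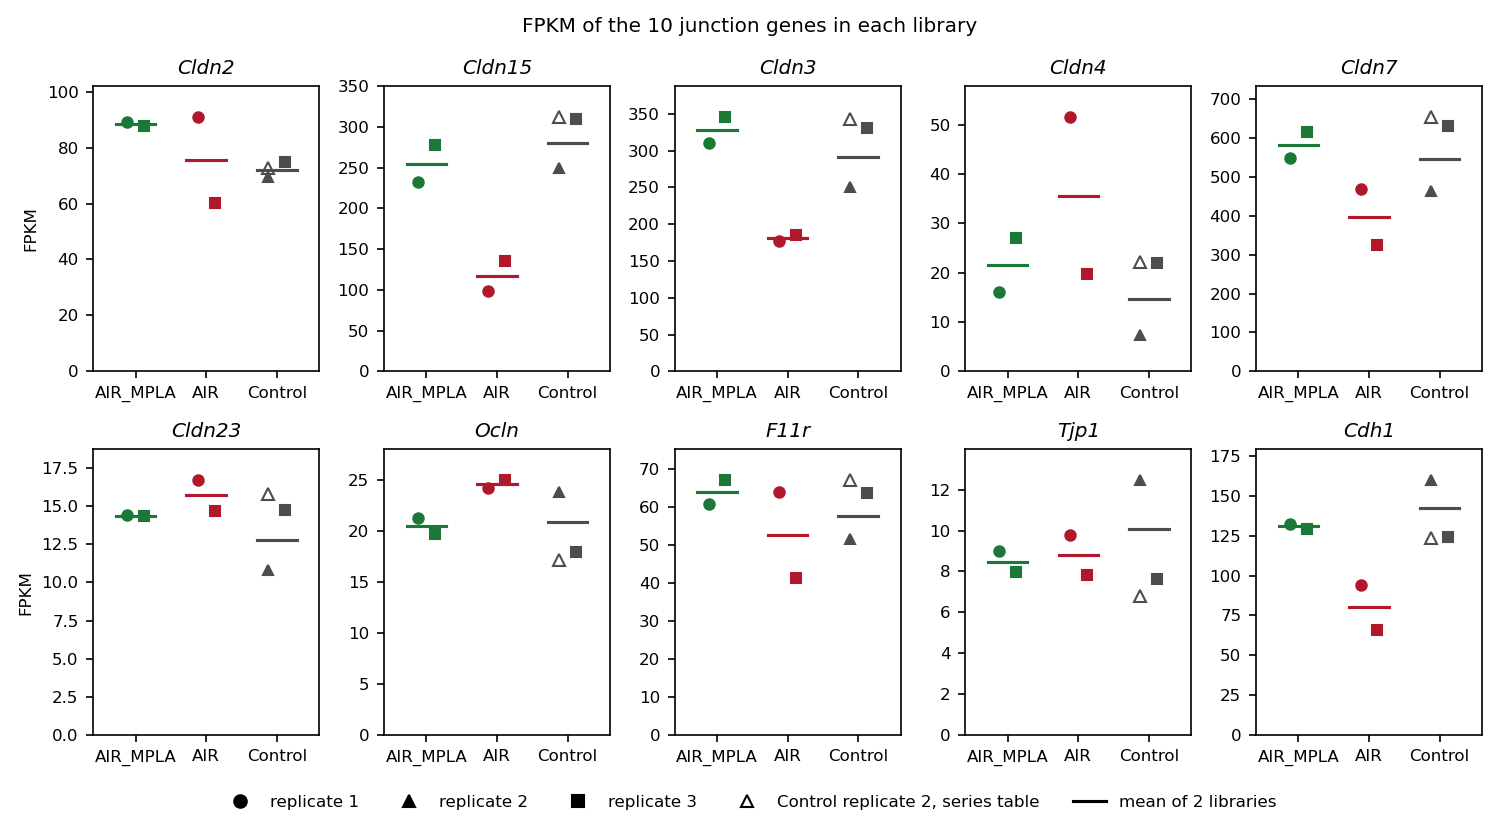
FPKM of each junction gene (vertical axes, each starting at 0) in the 6 libraries, grouped as AIR_MPLA, AIR and Control; filled points are libraries, horizontal lines are means of 2 libraries, and the open triangle is the series-table value of Control replicate 2. For Cldn15, Cldn3 and Cdh1 both AIR points lie below every other point, while for Cldn4 the AIR points lie apart at 51.7 and 19.7 FPKM.

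Of the 2 pore-forming claudins, Cldn15 fell after irradiation and was higher again with MPLA, while Cldn2 passed no test. Their starts are shown because both products form cation pores. The sequences are the 250 bases before the start site from RefSeq on GRCm38.p6, 5′ to 3′ on the gene's strand, with matches to 6 motifs in capitals. The motifs, searched on both strands, were TATAAA for the core promoter element of that name (TATA box), GGGCGG for the GC box, CAGGTG for the E-box that Snail and ZEB repressors bind, TTTATG for CDX factors, AGATAA for the zinc finger factors GATA4 and GATA6, and CAAAGTCCA for HNF4. TTTATG and the reverse complement of TATAAA share the letters TTTAT and can overlap.
Cldn15 (chr5:136967619-136967868, plus strand): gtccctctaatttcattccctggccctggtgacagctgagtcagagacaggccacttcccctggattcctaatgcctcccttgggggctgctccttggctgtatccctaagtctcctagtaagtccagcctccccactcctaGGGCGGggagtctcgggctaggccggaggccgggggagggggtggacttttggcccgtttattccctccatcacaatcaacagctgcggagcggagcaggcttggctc
Cldn2 (chrX:139800558-139800807, plus strand): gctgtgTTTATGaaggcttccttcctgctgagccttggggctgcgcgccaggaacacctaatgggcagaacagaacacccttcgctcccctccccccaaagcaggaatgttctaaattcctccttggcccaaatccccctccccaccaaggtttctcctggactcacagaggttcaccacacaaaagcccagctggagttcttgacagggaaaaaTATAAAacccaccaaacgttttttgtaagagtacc
In the Cldn2 window the capitals mark a CDX match 244 bases and a TATA box 35 bases before the start. In the Cldn15 window they mark 1 GC box, 108 bases before the start. Of 32851 RefSeq promoter windows of this length, 12.4% hold a TATA box, 10.8% the CDX letters and 32.7% a GC box. These are matches of letters, not shown to be bound.

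Cldn15 (gene ID 60363, GRCm38.p6 chromosome 5, 136967869 to 136975845) had 233 and 277 FPKM in AIR_MPLA, 99.1 and 135 in AIR, and 250 and 310 in Control. Values of each group are given in the order of its replicate numbers. Both AIR libraries lay below all 4 others, and the AIR_MPLA and Control values overlapped. With the series-table value of Control replicate 2 (313 FPKM) they did not, and both AIR_MPLA libraries lay below Control. In AIR against Control the log2 fold was -1.26 (SE 0.22, limma adjusted p = 0.0124), and the means were 117 ± 25.3 FPKM for AIR crypts and 280 ± 42.5 for Control crypts (SD, n = 2 each). Between AIR_MPLA and AIR it was 1.13 (SE 0.22, limma adjusted p = 0.0191), with a mean of 255 ± 31.4 FPKM for AIR_MPLA crypts. All log2 folds are on the log2(FPKM + 1) scale. The first call held in 12 of 13 other settings, with log2 folds between -1.48 and -0.91. The exception was the fit without AIR replicate 1 (log2 fold -1.04, limma adjusted p = 0.0694). The call with MPLA held in 9 of 16 other settings, with log2 folds between 0.68 and 1.35 and adjusted p-values up to 0.156.

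Cldn2 (gene ID 12738, chromosome X, 139800808 to 139811386) had 89.0 and 87.6 FPKM in AIR_MPLA, 91.1 and 60.3 in AIR, and 69.4 and 74.7 in Control. The AIR libraries spanned the range of all the others. Its log2 fold was 0.04 in AIR against Control (SE 0.21, limma adjusted p = 0.897) and 0.25 in AIR_MPLA against AIR (SE 0.21, limma adjusted p = 0.387). The AIR_MPLA libraries lay above both Control libraries, a difference that missed the threshold with a log2 fold of 0.29 (SE 0.21, limma adjusted p = 0.513). The balance of the pore claudins can be read as Cldn15 divided by Cldn2 in each library. That ratio was 2.61 and 3.16 in AIR_MPLA, 1.09 and 2.24 in AIR, and 3.60 and 4.15 in Control, so the 3 groups did not overlap. With 2 libraries a group, a two-sided exact permutation test of the log2 ratio cannot go below p = 0.333, the value it gave in all 3 comparisons.

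Among the claudins known mostly as sealing or supporting ones, Cldn3 fell in AIR and was higher with MPLA, while Cldn4, Cldn7 and Cldn23 did not pass in any comparison. Cldn3 and Cldn4 are neighbours on chromosome 5, 39279 bases apart with no gene of the RefSeq table between them. Their windows are shown because neighbouring claudin genes had folds of opposite sign after irradiation.
Cldn3 (chr5:134985964-134986213, plus strand): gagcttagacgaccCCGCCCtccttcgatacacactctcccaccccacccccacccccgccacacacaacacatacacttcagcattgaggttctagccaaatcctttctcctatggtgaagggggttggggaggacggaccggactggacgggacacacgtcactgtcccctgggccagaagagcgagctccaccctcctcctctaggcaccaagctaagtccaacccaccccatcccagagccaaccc
Cldn4 (chr5:134946935-134947184, minus strand): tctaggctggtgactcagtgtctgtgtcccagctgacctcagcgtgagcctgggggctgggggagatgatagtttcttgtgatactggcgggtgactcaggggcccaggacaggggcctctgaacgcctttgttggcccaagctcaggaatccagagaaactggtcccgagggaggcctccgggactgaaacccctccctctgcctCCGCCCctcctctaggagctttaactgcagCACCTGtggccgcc
The Cldn3 window holds 1 GC box, 236 bases before the start. The Cldn4 window holds 1 GC box at 44 bases and the E-box letters at 14 bases before the start, letters found in 17.2% of all promoter windows. Matches to GATA or HNF4 letters were in none of these 4 windows, against 9.99% and 0.384% of all windows.

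Cldn3 (gene ID 12739, chromosome 5, 134986214 to 134987476) had 311 and 346 FPKM in AIR_MPLA, 178 and 186 in AIR, and 251 and 331 in Control. Both AIR libraries lay close together and below the rest. The log2 fold was -0.66 in AIR against Control (SE 0.20, limma adjusted p = 0.0465) and 0.85 in AIR_MPLA against AIR (SE 0.20, limma adjusted p = 0.0252). The calls held in 3 of 13 and 7 of 16 other settings. Its transcript is rich in G and C (62.7%, against a median of 49.7% over tested genes). After removal of each library's trend with GC content the folds were -0.30 (limma adjusted p = 0.197) and 0.35 (limma adjusted p = 0.166), and neither passed.

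Cldn4 (gene ID 12740, chromosome 5, 134945123 to 134946934) had the largest SE of the 10 on the log2 scale. It had 16.0 and 27.0 FPKM in AIR_MPLA, 51.7 and 19.7 in AIR, and 7.40 and 21.9 in Control, where the series table has 22.1 for replicate 2. A single AIR library was high and a single Control library low, and the groups overlapped in every comparison. Its log2 fold of 1.25 in AIR against Control had an SE of 0.58 (limma adjusted p = 0.147). Between AIR_MPLA and AIR the log2 fold was -0.59 (SE 0.58, limma adjusted p = 0.444). Cldn4 passed limma there in 1 of 16 other settings (adjusted p = 0.00977). That setting was a replicate block with crossed replicate numbers, added after the data were seen. In AIR against Control Cldn4 passed in 0 of 13.

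Cldn7 (gene ID 53624, chromosome 11, 69964779 to 69967886) encodes a claudin of the lateral membrane that binds EpCAM. It had 548 and 615 FPKM in AIR_MPLA, 469 and 324 in AIR, and 462 and 630 in Control. The AIR_MPLA libraries lay above both AIR libraries, and the higher AIR library lay just above the lower Control library. Neither comparison passed: the log2 fold was -0.47 in AIR against Control (SE 0.26, limma adjusted p = 0.205) and 0.57 in AIR_MPLA against AIR (SE 0.26, limma adjusted p = 0.125). With the series-table value of Control replicate 2 (654 FPKM) both passed, at -0.72 (limma adjusted p = 0.0119) and 0.57 (limma adjusted p = 0.0333). Over all settings the adjusted p of Cldn7 lay between 0.0119 and 0.739 for the first and between 0.0273 and 0.818 for the second. The value of 0.0273 came from the crossed replicate numbers, the setting in which Cldn4 passed.

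Cldn23 (gene ID 71908, chromosome 8, 35824709 to 35826559) was low and even. It had 14.4 and 14.4 FPKM in AIR_MPLA, 16.7 and 14.7 in AIR, and 10.9 and 14.8 in Control. The whole range was under 6 FPKM, and no comparison passed (log2 fold 0.29, SE 0.18, limma adjusted p = 0.261 in AIR against Control). After GC correction it passed as higher in AIR than in Control (log2 fold 0.65, limma adjusted p = 0.0177) and lower in AIR_MPLA than in AIR (log2 fold -0.58, limma adjusted p = 0.0405). Over the other settings its adjusted p reached 0.783 and 0.937.

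The remaining tight junction genes moved little. Ocln (gene ID 18260, chromosome 13, 100496504 to 100552718) encodes occludin and had 21.3 and 19.7 FPKM in AIR_MPLA, 24.2 and 24.99 in AIR, and 23.8 and 17.9 in Control. AIR lay above both other groups, by less than 1 FPKM over Control replicate 2, and its log2 fold was 0.24 in AIR against Control (SE 0.17, limma adjusted p = 0.325). With the series-table value of Control replicate 2 (17.2 FPKM) it passed as higher (log2 fold 0.47, limma adjusted p = 0.00425), while after GC correction the sign turned (log2 fold -0.033, limma adjusted p = 0.859). Its transcript has the lowest GC content of the 10, at 42.0%. F11r (gene ID 16456, chromosome 1, 171437561 to 171464593) encodes junctional adhesion molecule A and had 60.8 and 67.1 FPKM in AIR_MPLA, 64.0 and 41.3 in AIR, and 51.7 and 63.6 in Control. One AIR library was low and the other within the range of the rest, so the groups overlapped (log2 fold -0.15, SE 0.23, limma adjusted p = 0.637 in AIR against Control). Tjp1 (gene ID 21872, chromosome 7, 65296165 to 65527850), the ZO-1 gene, had the lowest level of the 10 in every library but Control replicate 2, with 8.98 and 7.97 FPKM in AIR_MPLA, 9.77 and 7.84 in AIR, and 12.5 and 7.64 in Control. Control replicate 2 alone lay above 10 FPKM, and the series table has 6.79 FPKM there. In AIR against Control its log2 fold was -0.14 (SE 0.24, limma adjusted p = 0.664), short of the threshold.

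Cdh1 (gene ID 12550, chromosome 8, 106603350 to 106670247) fell in AIR and was higher with MPLA. It had 132 and 129 FPKM in AIR_MPLA, 94.2 and 66.0 in AIR, and 160 and 124 in Control. Both AIR libraries lay below the other 4, and the AIR_MPLA libraries lay within the Control range. With the series-table value of Control replicate 2 (123 FPKM) both AIR_MPLA libraries lay above Control. The log2 fold was -0.83 in AIR against Control (SE 0.22, limma adjusted p = 0.0358) and 0.72 in AIR_MPLA against AIR (SE 0.22, limma adjusted p = 0.0490). These calls lay near the threshold and passed in 3 of 13 and 7 of 16 other settings. After GC correction they were -0.57 (limma adjusted p = 0.0946) and 0.44 (limma adjusted p = 0.201).

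**Figure D2:**
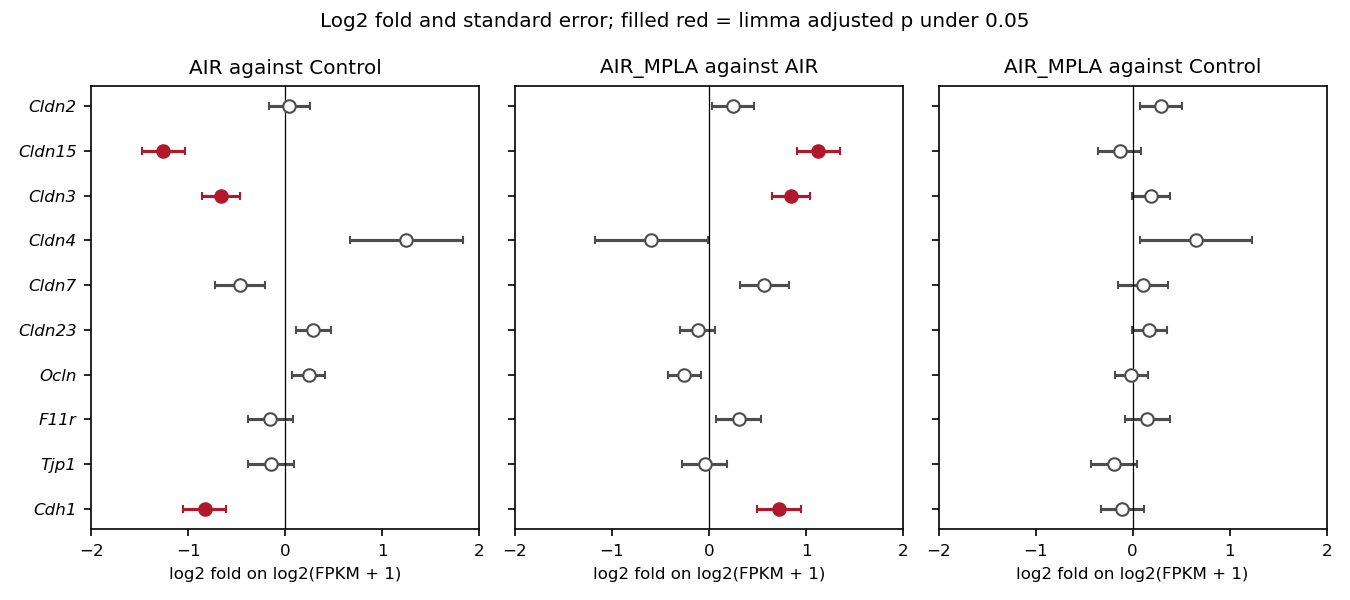
Log2 fold on log2(FPKM + 1) with its standard error (horizontal axes) for the 10 junction genes in AIR against Control, AIR_MPLA against AIR and AIR_MPLA against Control; filled red points passed limma at an adjusted p under 0.05. Cldn15, Cldn3 and Cdh1 are filled in the first panel, at -1.26, -0.66 and -0.83, and in the second, at 1.13, 0.85 and 0.72, and no point is filled in the third.

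In AIR against Control, 3 of the 10 genes were lower, none was higher and 7 did not pass, with a median log2 fold of -0.15. Over all 10415 tested genes 18.7% were lower and 8.05% higher (26.7% in all) and the median was -0.13, so the share of junction genes called was near that of any genes. In AIR_MPLA against AIR, 3 of 10 were higher, none lower and 7 did not pass, with a median log2 fold of 0.28. Of all genes 19.5% were higher and 9.90% lower (29.4% in all), and the median was 0.15. Both comparisons share the AIR libraries. Groups did not overlap for 3 junction genes lower and 1 higher in AIR against Control, and for 4 higher and 2 lower in AIR_MPLA against AIR. Of all tested genes 63.9% did not overlap in the first comparison (41.7% lower, 22.2% higher) and 77.2% in the second (47.5% higher, 29.7% lower).

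Scaling and library choice moved these counts. With median-ratio scaling, 1225 of all genes were higher and 1124 lower in AIR against Control, where unscaled FPKM gave 838 and 1948. With MPLA against without it the split was 1066 higher and 1463 lower, where unscaled FPKM gave 2029 and 1031. Scaled to 5 epithelial genes, the splits were 1280 higher and 634 lower in the first comparison and 274 higher and 2113 lower in the second, and after GC correction 1219 and 1251, and 669 and 514. Under median-ratio scaling Cldn15 alone passed of the 10, in both comparisons (log2 fold -1.08, limma adjusted p = 0.0223, and 0.96, limma adjusted p = 0.0308). The median log2 fold of all genes under it was 0.021 and 0.0045. The 5 genes are expressed by all epithelial cells (Epcam, Krt8, Krt18, Krt19 and Vil1). They were not constant: unscaled, 1 passed as lower in AIR than in Control (Vil1). In AIR_MPLA against AIR 2 passed as higher (Krt19 and Vil1). Scaling to the 5 genes moved the median of all genes to 0.11 in AIR against Control and to -0.23 in AIR_MPLA against AIR. Cldn15 still passed as lower in AIR (log2 fold -0.98, limma adjusted p = 0.0290), and in AIR_MPLA against AIR no junction gene passed in limma (3 at an unadjusted p under 0.05), with Cldn15 at 0.68 (limma adjusted p = 0.0754). The summed FPKM of those 5 genes was 3359 and 3871 in AIR_MPLA, 2673 and 2403 in AIR, and 3131 and 3333 in Control. Its part in the junction results was not tested beyond this scaling. Without either AIR or either AIR_MPLA library, none of the 10 and none of all 10415 genes passed limma in AIR_MPLA against AIR, where between 2457 and 3665 genes had an unadjusted p under 0.05. In AIR against Control no junction gene passed without AIR replicate 1 (4 at an unadjusted p under 0.05), and Cldn15 alone passed without AIR replicate 3.

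**Figure D3:**
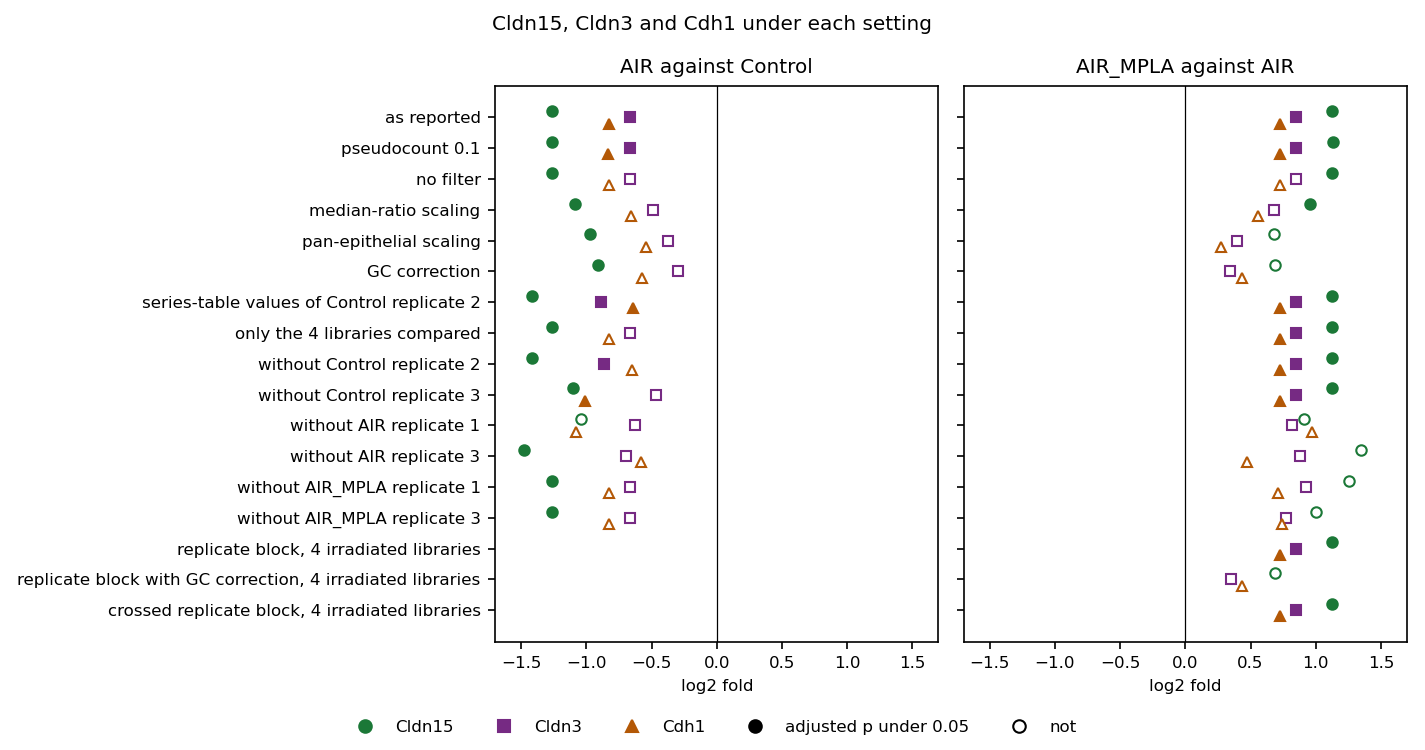
Log2 fold (horizontal axes) of Cldn15, Cldn3 and Cdh1 under each setting (rows) in AIR against Control and AIR_MPLA against AIR; filled symbols passed limma at an adjusted p under 0.05. All symbols of the first panel lie below 0 and all of the second above 0, and most Cldn15 symbols of the first panel are filled.

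Folds of all genes also followed GC content. Among the 2072 tested genes with the lowest GC content the median log2 fold was 0.36 in AIR against Control and -0.61 in AIR_MPLA against AIR, and among the 2072 with the highest it was -0.35 and 0.48. The genes called among the 10 had a GC content of 62.7% (Cldn3), 54.1% (Cldn15) and 50.7% (Cdh1). Among those not called, Cldn7 had 57.0%, Cldn4 56.8%, Cldn23 54.8%, F11r 50.1%, Cldn2 48.8%, Tjp1 46.8% and Ocln 42.0%. After GC correction Cldn15 still passed as lower in AIR (log2 fold -0.91, limma adjusted p = 0.0196) and did not pass in AIR_MPLA against AIR (log2 fold 0.68, limma adjusted p = 0.0636).

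Irradiated crypts with MPLA were set against unirradiated crypts to see which junction transcripts still differed. None of the 10 passed limma, and none had an unadjusted p under 0.05. Of all tested genes 1.48% passed (0.643% higher, 0.835% lower). The groups did not overlap for Cldn2 alone, higher, and for 49.5% of all genes (25.0% higher, 24.5% lower). The log2 folds of the 10 lay between -0.19 (Tjp1) and 0.65 (Cldn4), with a median of 0.13 beside -0.029 over all genes. Cldn15 was at -0.13 (SE 0.22, limma adjusted p = 0.772), Cldn3 at 0.19 (SE 0.20, limma adjusted p = 0.638) and Cdh1 at -0.11 (SE 0.22, limma adjusted p = 0.817). A test that was not passed does not show that the levels were equal.

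The makeup of the claudin pool was read from each library's summed claudin FPKM. The files hold 33 claudin genes, of which 7 reached 1 FPKM in each library: the 6 described here and Cldn12. The 6 made up between 98.1% and 99.0% of the sum in every library. The sum was 1226 and 1381 FPKM in AIR_MPLA, 920 and 754 in AIR, and 1068 and 1398 in Control, so it was lower in both AIR libraries than in the other 4. Cldn15 made up 19.0% and 20.1% of it in AIR_MPLA, 10.8% and 17.9% in AIR, and 23.4% and 22.2% in Control. Cldn2 made up 7.26% and 6.34% in AIR_MPLA, 9.90% and 8.0% in AIR, and 6.50% and 5.34% in Control. The shares of Cldn15 were lowest, and those of Cldn2 highest, in the AIR libraries. Cldn4 made up 1.31% and 1.96% in AIR_MPLA, 5.62% and 2.61% in AIR, and 0.693% and 1.57% in Control. Cldn7 and Cldn3 together held most of the pool in all libraries, with Cldn7 between 43.0% and 51.0% and Cldn3 between 19.3% and 25.4%. Cldn12, the only other claudin tested, did not pass in any comparison, and the endothelial claudin Cldn5 was at most 0.0553 FPKM.

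**Figure D4:**
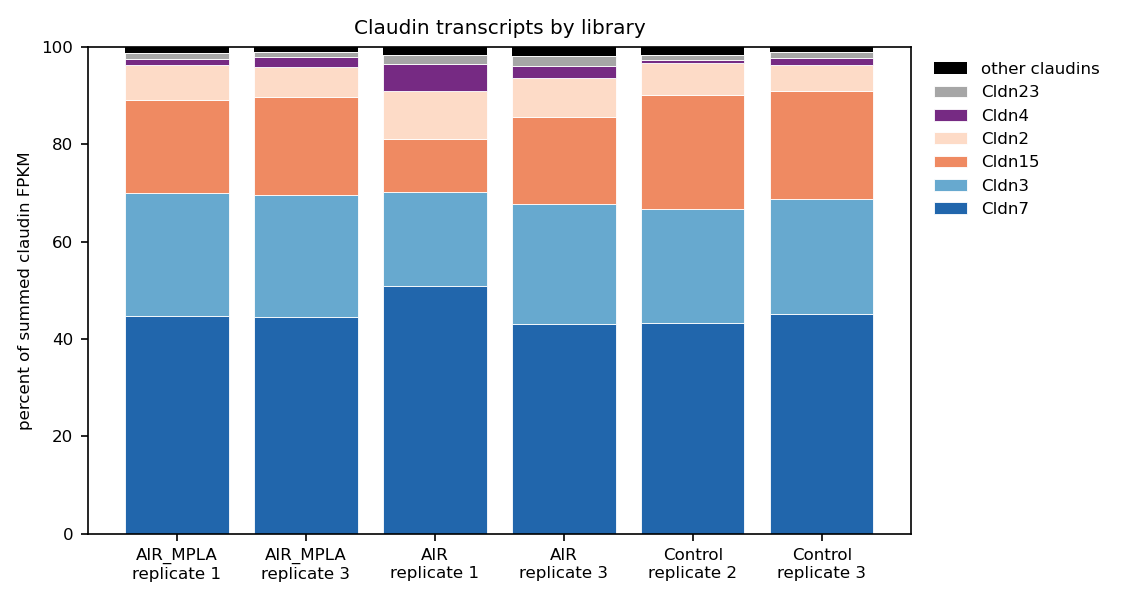
Percent of each library's summed claudin FPKM (vertical axis, from 0) held by Cldn7, Cldn3, Cldn15, Cldn2, Cldn4, Cldn23 and all other claudins together, for the AIR_MPLA, AIR and Control libraries. The Cldn15 band is thinnest in AIR replicate 1, at 10.8%, and the Cldn4 band is thickest there, at 5.62%.

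Genes that work with these 10 were read from lists of other claudins, tight junction and adherens junction parts, desmosomes, contractility and protease genes, and transcription regulators. The lists were chosen with earlier results of these data known, so their shares describe the listed genes and test nothing. Of 91 such genes in the files 62 were tested. In AIR against Control 18 were lower and 3 higher (29.0% and 4.84%, beside 18.7% and 8.05% of all genes), and in AIR_MPLA against AIR 22 were higher and 4 lower (35.5% and 6.45%, beside 19.5% and 9.90%). After GC correction the counts were 10 lower and 7 higher in the first and 5 higher and 3 lower in the second. With scaling to the 5 epithelial genes they were 4 lower and 6 higher, and 3 higher and 9 lower. Without AIR replicate 1, 1 of the 62 passed limma in the first comparison (29 at an unadjusted p under 0.05) and 0 in the second (33 at an unadjusted p under 0.05). In AIR_MPLA against Control none of the 62 passed limma, and 5 had an unadjusted p under 0.05.

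Among 20 tested partners at the tight junction, 4 were lower and 2 higher in AIR than in Control, beside 18.7% and 8.05% of all tested genes. Tjp3, which encodes the scaffold ZO-3, had 50.6 and 49.7 FPKM in AIR_MPLA, 29.5 and 31.1 in AIR, and 52.4 and 61.7 in Control. Its log2 fold was -0.89 in AIR against Control (limma adjusted p = 0.0115) and 0.71 in AIR_MPLA against AIR (limma adjusted p = 0.0213). Ybx3, which encodes a ZO-1 partner and Y-box protein, was lower in AIR (log2 fold -0.86, limma adjusted p = 0.0178) and higher with MPLA (0.87, limma adjusted p = 0.0203). Marveld2, which encodes tricellulin of tricellular corners, was lower in AIR (log2 fold -0.61, limma adjusted p = 0.0319), and Lsr, the lipolysis-stimulated receptor of the same corners, was higher with MPLA than without (0.86, limma adjusted p = 0.0284). The other direction was taken by Mpp5, which encodes the polarity protein PALS1, with 5.17 and 4.53 FPKM in AIR_MPLA, 19.3 and 14.7 in AIR, and 9.16 and 5.196 in Control. Mpp5 had a log2 fold of 1.17 in AIR against Control (limma adjusted p = 0.0208) and of -1.61 in AIR_MPLA against AIR (limma adjusted p = 0.0154). Igsf5, a junctional adhesion molecule gene, also rose in AIR (log2 fold 0.95, limma adjusted p = 0.0107) and was lower with MPLA (-0.61, limma adjusted p = 0.0311). After GC correction Mpp5 passed both comparisons with smaller log2 folds (0.72 in AIR against Control and -0.86 in AIR_MPLA against AIR), and Igsf5 passed both. Tjp3 and Ybx3 then passed in AIR against Control alone, with log2 folds of 0.20 (limma adjusted p = 0.298) and 0.37 (limma adjusted p = 0.111) with MPLA. Neither Marveld2 in AIR (-0.41, limma adjusted p = 0.0669) nor Lsr with MPLA (0.36, limma adjusted p = 0.158) passed after it.

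Of 12 tested adherens junction partners 3 were lower in AIR than in Control, and 4 were higher and 1 lower in AIR_MPLA than in AIR. Of all tested genes 18.7% were lower in the first comparison, and 19.5% higher and 9.90% lower in the second. Jup, which encodes plakoglobin, had 42.4 and 48.1 FPKM in AIR_MPLA, 20.8 and 16.4 in AIR, and 30.3 and 40.6 in Control. Both AIR libraries were the lowest. The log2 fold of Jup was -0.89 in AIR against Control (limma adjusted p = 0.0221) and 1.25 in AIR_MPLA against AIR (limma adjusted p = 0.0154). It passed both after GC correction, with log2 folds of -0.53 and 0.74. Nectin1, a nectin adhesion gene, was lower in AIR (log2 fold -0.85, limma adjusted p = 0.0136) and higher with MPLA (0.85, limma adjusted p = 0.0180), and Lima1, which encodes the actin binder EPLIN, was lower in AIR (-0.55, limma adjusted p = 0.0335). With MPLA Nectin2 was higher (log2 fold 0.93, limma adjusted p = 0.0262) and Nectin3 lower (-0.94, limma adjusted p = 0.0437). Among 8 desmosome genes Ppl, which encodes periplakin, was higher in AIR (0.83, limma adjusted p = 0.0239). Evpl, which encodes envoplakin, was lower in AIR (-0.62, limma adjusted p = 0.0337) and higher again with MPLA (0.67, limma adjusted p = 0.0275). Both had values near the filter of 1 FPKM. Ppl had 1.41 and 0.861 FPKM in Control, and Evpl had 0.854 and 0.940 in AIR. With a pseudocount of 0.1 their log2 folds in AIR against Control were 1.25 (Ppl) and -1.01 (Evpl). After GC correction Ppl and Nectin3 still passed. Nectin1 (-0.48, limma adjusted p = 0.0761), Lima1 (-0.29, limma adjusted p = 0.147) and Evpl (-0.25, limma adjusted p = 0.304) did not pass in AIR against Control. With MPLA, Nectin1 (0.35, limma adjusted p = 0.193), Nectin2 (0.43, limma adjusted p = 0.120) and Evpl (0.17, limma adjusted p = 0.513) did not.

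Of 11 contractility and protease genes 4 were lower in AIR than in Control and none higher, and 7 were higher and 1 lower in AIR_MPLA than in AIR. Of all tested genes 18.7% were lower and 8.05% higher in the first comparison, and 19.5% higher and 9.90% lower in the second. Mylk, which encodes the myosin light chain kinase that tightens the belt of actin at junctions, had 8.85 and 9.51 FPKM in AIR_MPLA, 5.37 and 5.83 in AIR, and 13.6 and 11.5 in Control. The 3 groups did not overlap, and the log2 fold was -1.03 in AIR against Control (limma adjusted p = 0.00888). Shroom3, an organiser of apical actin, had 20.7 and 20.7 FPKM in AIR_MPLA, 10.4 and 8.01 in AIR, and 22.0 and 27.5 in Control. Its log2 fold was -1.34 in AIR against Control (limma adjusted p = 0.00755) and 1.10 in AIR_MPLA against AIR (limma adjusted p = 0.0154), and it passed both after GC correction, at -0.98 and 0.60. Mylk still passed after it in AIR against Control (-0.69, limma adjusted p = 0.0237). Myh9, a non-muscle myosin heavy chain gene, was lower in AIR (-0.94, limma adjusted p = 0.0161) and higher with MPLA (0.97, limma adjusted p = 0.0189). Prss8, which encodes the membrane protease prostasin, was higher with MPLA (0.68, limma adjusted p = 0.0199). After GC correction neither Myh9 (-0.58, limma adjusted p = 0.0824, and 0.48, limma adjusted p = 0.156) nor Prss8 (0.20, limma adjusted p = 0.310) passed.

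Of 10 tested transcription regulators 6 were lower in AIR than in Control and 6 higher in AIR_MPLA than in AIR. Of all tested genes 18.7% and 19.5% were. Cdx2, the intestinal homeobox factor, had 89.3 and 84.6 FPKM in AIR_MPLA, 44.3 and 50.6 in AIR, and 81.4 and 94.8 in Control. AIR_MPLA lay within the Control range, and both AIR libraries lay below. With the series-table value of Control replicate 2 (98.8 FPKM) both AIR_MPLA libraries lay below Control. The log2 fold of Cdx2 was -0.88 in AIR against Control (limma adjusted p = 0.0132) and 0.86 in AIR_MPLA against AIR (limma adjusted p = 0.0181). After GC correction it passed in the first (-0.52, limma adjusted p = 0.0409) and not in the second (0.37, limma adjusted p = 0.129). Elf3, an epithelial ETS factor, was lower in AIR (-1.20, limma adjusted p = 0.0184) and higher with MPLA (1.26, limma adjusted p = 0.0196), Klf5, a factor of crypt proliferation, was lower in AIR (-0.84, limma adjusted p = 0.0188), and Cdx1 was higher with MPLA (0.85, limma adjusted p = 0.0189). After GC correction Elf3 and Klf5 still passed, and Cdx1 did not (0.35, limma adjusted p = 0.145). The repressors of Cdh1 that act in epithelial to mesenchymal change, Snai1, Snai2, Zeb1, Zeb2 and Twist1, had group means of at most 0.198 FPKM and were not tested.

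**Figure D5:**
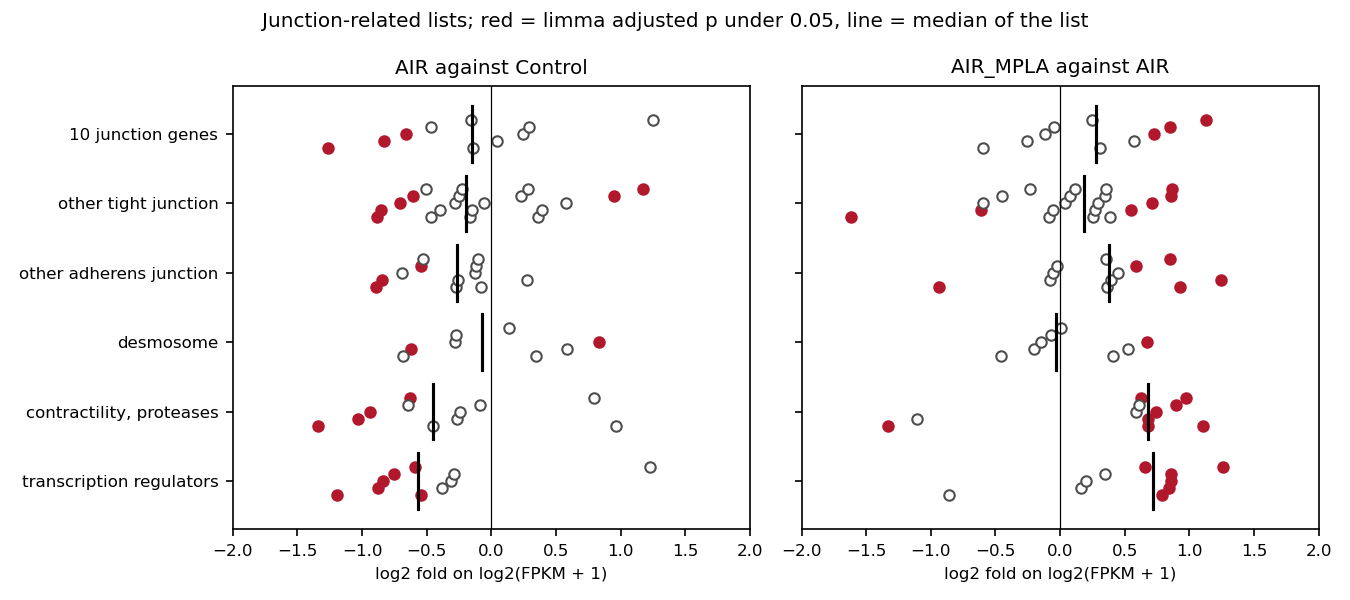
Log2 fold on log2(FPKM + 1) (horizontal axes) of each tested gene in the 10 junction genes and 5 related lists, for AIR against Control and AIR_MPLA against AIR; red points passed limma at an adjusted p under 0.05 and vertical lines are list medians. Transcription regulators have medians of -0.57 and 0.72 and the 10 junction genes -0.15 and 0.28.

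For each junction gene that passed a test, the most alike gene of the junction lists was found as the smallest root mean square difference of log2(FPKM + 1) over the 6 libraries, with each gene centred on its own mean, among 71 other tested genes. For Cldn3 it was Spint2, which encodes a serine protease inhibitor, at 0.055 (median of the 71 genes 0.32). For Cdh1 it was Myh9, at 0.11 (median 0.34), and for Cldn15 it was Cdx2, at 0.20 (median 0.50). These are descriptions over 6 libraries in 3 groups.

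Cell type markers moved with the groups as well. For scale, 18.7% of all tested genes were lower and 8.05% higher in AIR than in Control. In AIR_MPLA against AIR 19.5% were higher and 9.90% lower. Of 9 enterocyte markers 4 were higher and 1 lower in AIR than in Control, with a summed FPKM of 9199 and 11514 in AIR_MPLA, 18479 and 13139 in AIR, and 5408 and 6852 in Control. Of 6 stem cell markers 5 were lower in AIR, and of 6 Paneth cell markers 4. All 6 T cell markers were lower in AIR than in Control, with a summed FPKM of 20.3 and 28.9 in AIR_MPLA, 30.9 and 39.2 in AIR, and 117 and 181 in Control. All 5 tuft cell markers and 2 of 6 goblet cell markers were lower in AIR. Between AIR_MPLA and AIR, 3 of the stem cell markers were higher, 1 enterocyte marker was higher and 2 were lower, and 1 of 5 enteroendocrine markers was higher. Of the 6 goblet cell markers, Fcgbp (log2 fold 1.82, limma adjusted p = 0.0153) and Muc2 (1.29, limma adjusted p = 0.0166) were also higher with MPLA. The other 4 did not pass, and 1 of them had a log2 fold below 0. No Paneth, T or tuft cell marker passed. The part of these cell types in the junction results was not tested.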

How the data were processed

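RNA-seq values were analysed for 6 libraries. Per the labels' protocols, libraries were made with the Illumina TruSeq kit from Trizol RNA. Trimmomatic, HISAT2, HTSeq and Cufflinks with GRCm38.p6 are named per the submitters' processing notes, without versions or strand setting, so overlapping and antisense genes cannot be told apart. The authors deposited FPKM per gene in 1 file per sample, under a header that reads as counts, and in 1 series table; 5 of the 6 files equalled the table within 1e-06 in all 21878 genes. The table's control columns carry a letter and a number, and were matched to Control by the number. Groups came from sample titles.

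From the deposited FPKM, log2(FPKM + 1) values were fitted with limma 3.58.1 (R 4.3.3): 1 mean for each group, 6 libraries together, 3 residual degrees of freedom, eBayes with trend and robust options, on genes reaching 1 FPKM in 2 or more libraries. P-values were adjusted over all 10415 by the Benjamini-Hochberg method at 0.05. GC content came from the longest GENCODE transcript (99.4% of tested genes) and was corrected by a lowess trend with span 0.3. Other settings are given in the closing section. The fit was tested on simulated data. Tables used Python 3.11.15 with pandas 2.3.3 and matplotlib 3.10.9. RefSeq promoter windows matched 8 of the 10 genes by symbol. The junction genes and lists were chosen with earlier results of these data known. Named from the other lists were up to 3 called genes per list, comparison and direction, by smallest p (1 such gene, lower in AIR_MPLA than in AIR, is not reported here); Snai1, Snai2, Zeb1, Zeb2, Twist1, Cldn12, Cldn5, Fcgbp and Muc2 are named outside this rule, after their values were seen.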

Additional observations from a re-analysis of the deposited data

How the results depend on the processing

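The other settings were a pseudocount of 0.1, no filter, median-ratio scaling, scaling to 5 epithelial genes, GC correction, Control replicate 2 as in the series table, a fit to the 4 libraries of a comparison alone, leaving out each library in turn, and a replicate block. Where 1 library remained in a group, its spread was assumed to equal that of the others. The cause of these changes was not tested.

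The count of the 10 junction genes that passed in AIR against Control was 3. It was 1 with no filter, with either scaling and with only 4 libraries, 5 with the series-table values, and 0 to 2 without each library. The count of all genes was 2786; it was 6490 with the series-table values, 1427 with only 4 libraries and 124 to 4329 without each library. In AIR_MPLA against AIR the junction count was 3. It was 1 with no filter, median-ratio scaling or GC correction (there Cldn23, lower), 0 with epithelial scaling and 0 to 3 without each library. The count of all genes was 3060; it was 1181 with no filter, 1183 with GC correction, 5724 with the series-table values, 4899 with only 4 libraries and 0 to 4893 without each library. In AIR_MPLA against Control the junction count was 0 in every setting, with at most 2 at an unadjusted p under 0.05. The count of all genes was 154; it was 73 with no filter, 297 with GC correction, 1108 with the series-table values, 43 with only 4 libraries and 13 to 1645 without each library.

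Both irradiated groups carry replicates 1 and 3, but the number is not shown to pair them: the same-numbered libraries deviated in opposite directions (r = -0.33 across genes). With the replicate block 3 junction genes and 3562 genes passed in AIR_MPLA against AIR, and with the block and GC correction 0 and 0 (2 and 3486 at an unadjusted p under 0.05). With crossed numbers, a setting added after seeing the data, 5 and 5722 passed. This setting is 1 of the 16 counted for each member in AIR_MPLA against AIR.

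Signs turned for members that did not pass. In AIR against Control, Ocln was -0.033 with GC correction; Tjp1 was 0.015 with median-ratio scaling, 0.11 with epithelial scaling and 0.25 with the series-table values; F11r was 0.019, 0.13 and, with GC correction, 0.082. Without each library Cldn2 ran from -0.25 to 0.34, Tjp1 from -0.47 to 0.18 and F11r from -0.46 to 0.16. In AIR_MPLA against AIR, epithelial scaling gave -0.20 for Cldn2 and -0.14 for F11r, and GC correction gave 0.25 for Ocln, with or without the block. Without each library Cldn2 ran from -0.044 to 0.54, Cldn4 from -1.27 to 0.081, Tjp1 from -0.19 to 0.097 and F11r from -0.0025 to 0.62. In AIR_MPLA against Control, the series-table values gave -0.040 for Cldn3, -0.075 for Cldn4, -0.15 for Cldn7, -0.081 for Cldn23, 0.21 for Ocln, 0.21 for Tjp1, -0.032 for F11r and 0.079 for Cdh1; epithelial scaling gave -0.060 for Cldn7 and -0.0089 for F11r; GC correction gave -0.028 for Cldn7 and 0.21 for Ocln. Without each library Cldn3 ran from -0.013 to 0.39, Cldn4 from -0.069 to 1.38, Cldn7 from -0.12 to 0.33, Cldn15 from -0.29 to 0.023, Cldn23 from -0.035 to 0.38, Ocln from -0.21 to 0.18, Tjp1 from -0.51 to 0.13 and Cdh1 from -0.29 to 0.073. Of the 62 other junction genes, 41 passed in AIR against Control with the series-table values, against 21 as reported, and 12 in the fit to 4 libraries. Log2 folds of Cldn15, Cldn3 and Cdh1 kept their sign in AIR against Control and in AIR_MPLA against AIR in every setting run. The rule for naming genes from other lists gave 16 in AIR against Control and 17 in AIR_MPLA against AIR, the gene not reported included. Of these 11 and 6 passed after GC correction, 7 and 7 with epithelial scaling, 13 and 16 with median-ratio scaling, and 14 and 10 with no filter. Between AIR and Control 1 passed without AIR replicate 1 and 5 without AIR replicate 3. Between AIR_MPLA and AIR 0 passed limma without any 1 of the 4 irradiated libraries (15 to 17 at an unadjusted p under 0.05) or with the block and GC correction (11 at an unadjusted p under 0.05). None turned its sign in any setting. Read depth is unknown, so no counting interval can be given.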
